A study of Mus musculus with 4 samples.

Results

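The interferon-inducible GTPases described here are 9 genes, *Gbp2*, *Gbp3*, *Gbp5*, *Gbp7*, *Irgm1*, *Irgm2*, *Igtp*, *Iigp1* and *Gvin2*, of the 25655 genes measured in sorted cardiac neutrophils. They were chosen by name from these families with earlier values of the same 4 libraries in view, among them the count of 0 of *Gvin2* in 1 library, so that their levels and ratios are given as a description. All 9 were found in the 4 data sets, and all 9 were among the 6523 genes tested, which are the genes with a mean TPM, a level scaled to transcript length and library size, of more than 10 over the 4 libraries.

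RNA-Seq was performed on neutrophils sorted as CD45.2+CD11b+Ly6G+ cells and split into SiglecF hi and SiglecF lo subsets, from hearts of WT and *Cd300a-/-* mice, with 1 library per group. CD300a is an inhibitory receptor of myeloid cells, and SiglecF is a surface lectin that separates the 2 subsets. The mice were males of 8 to 12 weeks on the C57BL/6 background, and cells were taken on day 3 after myocardial ischemia and reperfusion (MI/R), with the artery closed for 60 minutes. Hearts of 8 mice were pooled for each library, the deletion is not limited to a cell type, and the labels call the subsets SiglecF+ and SiglecF-. As each group is 1 library, differences could not be checked in replicates, no test between conditions was made, and the values describe these 4 libraries. Below, with CD300a means the WT library and without CD300a the *Cd300a-/-* library of a subset.

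The depth, as the total of gene counts, was 9631901 for WT and 10988619 for *Cd300a-/-* SiglecF lo neutrophils, and 19278243 for WT and 17632989 for *Cd300a-/-* SiglecF hi neutrophils. *Cd300a* itself was at 127 and 163 TPM in WT SiglecF lo and SiglecF hi neutrophils and at 1.06 and 0.74 TPM in the *Cd300a-/-* libraries, as the labels say. *Siglecf* was at 11.3 and 15.3 TPM in the SiglecF lo libraries of WT and *Cd300a-/-* mice and at 354 and 405 TPM in the SiglecF hi libraries. All 8 neutrophil markers were detected in each library, but their summed level was 153887 TPM with and 202615 TPM without CD300a in SiglecF lo neutrophils, and 26543 TPM with and 31231 TPM without it in SiglecF hi neutrophils, with *S100a9* the most abundant. Of the 8, 4 were called higher without CD300a in SiglecF lo neutrophils and 3 in SiglecF hi neutrophils, where 17.2% and 2.64% of all genes tested were, and none was called lower, with called meaning a log2 ratio more than 0.5 from the median of all genes. *Ly6g*, which encodes an antigen of the sort, was at only 11.1 TPM in WT SiglecF hi neutrophils.

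Guanylate-binding proteins (GBPs) and immunity-related GTPases (IRGs) are made in response to interferon-γ or type I interferon, and they act inside the cell on membranes that enclose microbes. GBPs coat and open such membranes and bacterial surfaces, which exposes ligands of inflammasomes. Among the IRGs, the regulators Irgm1, Irgm2 and Igtp mark the cell's own membranes and hold back effectors such as Iigp1, while the giant GTPases encoded by the *Gvin* genes are a less studied group.

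The 9 genes together accounted for 338.9 TPM with and 269.5 TPM without CD300a in SiglecF lo neutrophils, and 331.4 TPM with and 354.9 TPM without it in SiglecF hi neutrophils. The sum was thus lowest in the *Cd300a-/-* SiglecF lo library. Without *Gvin2* the sums were 338.9, 246.8, 321.9 and 341.5 TPM in the same order. *Gbp2* was the most abundant of the 9 in every library and made up between 26.7% and 38.6% of the sum, followed by *Irgm1* and *Igtp*.

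**Figure D1:**
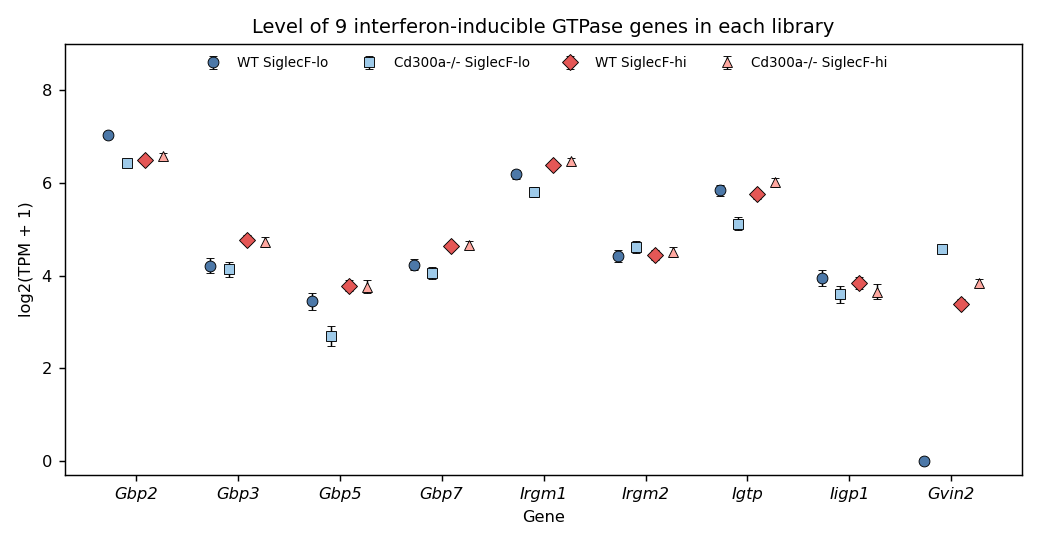
Level of each of the 9 genes as log2(TPM + 1) on the vertical axis, with 1 symbol per library and bars for the exact 95% Poisson interval of its count. *Gbp2*, *Irgm1* and *Igtp* are the 3 most abundant genes, and *Gvin2* is at 0 in WT SiglecF lo neutrophils only.

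The members lie in few places of the genome. On GRCm39, the build named in the labels, *Gbp5* (ENSMUSG00000105504, chr3:142199739-142228105), *Gbp7* (ENSMUSG00000040253, chr3:142236103-142255910), *Gbp3* (ENSMUSG00000028268, chr3:142265787-142278970) and *Gbp2* (ENSMUSG00000028270, chr3:142326363-142343769) follow each other on the plus strand. *Igtp* (ENSMUSG00000078853, chr11:58090382-58098417) and *Irgm2* (ENSMUSG00000069874, chr11:58090444-58113608) overlap on the plus strand of chromosome 11, and *Irgm1* (ENSMUSG00000046879, chr11:48752795-48762510) lies on its minus strand. *Gvin2* (ENSMUSG00000078606) is on chromosome 7 and *Iigp1* (ENSMUSG00000054072) on chromosome 18.

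Ratios between libraries are given as the log2((TPM + 1) ratio) minus the median of the same ratio over all 6523 genes. This median was -0.02 for *Cd300a-/-* against WT in SiglecF lo neutrophils, 0.04 in SiglecF hi neutrophils, and 0.53 and 0.61 for SiglecF hi against SiglecF lo neutrophils in WT and *Cd300a-/-* mice. A gene was called higher or lower when it lay more than 0.5 from the median. Brackets give the 95% counting interval, which covers counting error only, because amplified reads can come from the same molecule and pooled mice give no spread. In such bulk RNA, fewer cells of a kind and less RNA per cell cannot be told apart.

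The comparison of *Cd300a-/-* with WT SiglecF lo neutrophils asks what differs when CD300a is missing in this subset. Here 3 of the 9 genes, *Gbp2*, *Gbp5* and *Igtp*, were called lower in *Cd300a-/-*, where 19.1% of all genes tested were called lower. Only *Gvin2* was called higher, where 17.2% of all genes were. Without the library where each was highest, the mean TPM was 7.63 for *Gvin2* and 9.32 for *Gbp5*, under the limit of 10. *Gvin2* was thus tested only through the *Cd300a-/-* SiglecF lo library. *Gbp5*, highest in WT SiglecF hi neutrophils at 12.8 TPM and at 12.6 TPM in *Cd300a-/-* SiglecF hi neutrophils, was under the limit without either of these libraries. Of the other 5 genes, *Irgm2* was above the median and 4 were below it. When *Igtp* was summed with *Irgm2* (-0.40), or *Gvin2* with the similar gene *Gvin1* (0.24), the sum was not called, as described below. The median of the 9 ratios was -0.33, and -0.35 without *Gvin2*. Over all genes tested this median is 0 by construction, and the middle of the genes, from the lower to the upper quartile, ran from -0.37 to 0.36.

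*Gbp2*, a GBP that binds to vacuoles of parasites and to bacteria, had 1690 counts (130.7 TPM) with and 1223 counts (85.8 TPM) without CD300a in SiglecF lo neutrophils, and 1980 counts (89.7 TPM) with and 1870 counts (94.6 TPM) without it in SiglecF hi neutrophils. WT SiglecF lo neutrophils were the high library, and the other 3 lay between 85.8 and 94.6 TPM. The genotype ratio was -0.59 [-0.69 to -0.48] in SiglecF lo and 0.04 [-0.05 to 0.13] in SiglecF hi neutrophils.

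*Gbp5*, which promotes assembly of the NLRP3 inflammasome, had 203 counts (9.89 TPM) with and 124 counts (5.48 TPM) without CD300a in SiglecF lo neutrophils, and 448 counts (12.8 TPM) with and 395 counts (12.6 TPM) without it in SiglecF hi neutrophils. The *Cd300a-/-* SiglecF lo library was the low one. Its genotype ratio was -0.73 [-1.01 to -0.45] in SiglecF lo and -0.06 [-0.24 to 0.12] in SiglecF hi neutrophils. *Gbp5* had the lowest mean TPM of the 9 genes, and it was under 10 TPM in both SiglecF lo libraries.

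*Gbp3* and *Gbp7* showed another order. *Gbp3* was at 17.6 and 16.5 TPM in WT and *Cd300a-/-* SiglecF lo and at 26.4 and 25.6 TPM in WT and *Cd300a-/-* SiglecF hi neutrophils. *Gbp7* was at 17.8, 15.6, 23.9 and 24.2 TPM in the same order of libraries. For both genes the 2 genotypes of a subset lay side by side and the SiglecF hi libraries were the higher ones in TPM. Their genotype ratios in SiglecF lo neutrophils were -0.07 [-0.29 to 0.15] for *Gbp3* and -0.16 [-0.33 to 0.01] for *Gbp7*, both of which include 0.

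Among the regulators of the IRG system, *Irgm1*, which also bears on mitochondria and autophagy, had 850 counts (71.8 TPM) with and 718 counts (55.0 TPM) without CD300a in SiglecF lo neutrophils, and 1662 counts (82.2 TPM) with and 1586 counts (87.6 TPM) without it in SiglecF hi neutrophils. It was lowest in the *Cd300a-/-* SiglecF lo library. The genotype ratio was -0.36 [-0.50 to -0.22] in SiglecF lo neutrophils, which did not reach the threshold, and 0.05 [-0.04 to 0.15] in SiglecF hi neutrophils.

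*Igtp*, the regulator also known as Irgm3, had 584 counts (56.2 TPM) with and 387 counts (33.8 TPM) without CD300a in SiglecF lo neutrophils, and 940 counts (53.0 TPM) with and 1009 counts (63.5 TPM) without it in SiglecF hi neutrophils. The *Cd300a-/-* libraries were thus the lowest and the highest of the 4. The genotype ratio was -0.70 [-0.88 to -0.52] in SiglecF lo and 0.22 [0.09 to 0.35] in SiglecF hi neutrophils.

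*Irgm2*, a regulator found at the Golgi apparatus, had 388 counts (20.5 TPM) with and 493 counts (23.6 TPM) without CD300a in SiglecF lo neutrophils, and 672 counts (20.8 TPM) with and 629 counts (21.7 TPM) without it in SiglecF hi neutrophils. It was the most even of the 9 genes in TPM. Its genotype ratio was 0.21 [0.03 to 0.39] in SiglecF lo neutrophils, of opposite sign to that of *Igtp*. The 2 genes share 7974 bases of their intervals on the same strand, counted from the first to the last base of each gene. Of the windows of 75 bases in their transcripts, 8.37% for *Igtp* and 4.02% for *Irgm2* occur in the other gene. Reads that fit both genes can be given to either. Of the counts of both genes, *Irgm2* took 39.9% in WT and 56.0% in *Cd300a-/-* SiglecF lo neutrophils, and 41.7% in WT and 38.4% in *Cd300a-/-* SiglecF hi neutrophils. With both genes summed, the genotype ratio in SiglecF lo neutrophils was -0.40 [-0.53 to -0.27] and in SiglecF hi neutrophils 0.17 [0.07 to 0.27], neither past the threshold.

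*Iigp1*, an effector that assembles on vacuoles and breaks them, had 232 counts (14.4 TPM) with and 197 counts (11.1 TPM) without CD300a in SiglecF lo neutrophils, and 366 counts (13.3 TPM) with and 285 counts (11.6 TPM) without it in SiglecF hi neutrophils. Both WT libraries were above both *Cd300a-/-* libraries in TPM. The genotype ratio was -0.33 [-0.59 to -0.08] in SiglecF lo and -0.22 [-0.43 to -0.02] in SiglecF hi neutrophils, neither past the threshold.

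*Gvin2* stood apart from the other 8 genes. It had 0 counts with and 1159 counts (22.7 TPM) without CD300a in SiglecF lo neutrophils, and 754 counts (9.53 TPM) with and 947 counts (13.4 TPM) without it in SiglecF hi neutrophils. Against a floor of 3 counts for the WT library, which is what a count of 0 was taken to allow, in SiglecF lo neutrophils the TPM of *Gvin2* was at least 350.2-fold higher without CD300a than with it, and the log2 ratio of 4.58 above the median depends on the pseudocount. In SiglecF hi neutrophils the genotype ratio was 0.41 [0.28 to 0.54].

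The related gene *Gvin1* moved in the other direction. *Gvin1* had 1479 counts (32.0 TPM) with and 760 counts (14.9 TPM) without CD300a in SiglecF lo neutrophils, and 2059 counts (26.06 TPM) with and 1844 counts (26.07 TPM) without it in SiglecF hi neutrophils. It was highest in the library where *Gvin2* was at 0 and lowest in the library where *Gvin2* was highest. The sum of both genes was 1479 counts (32.0 TPM), 1919 counts (37.6 TPM), 2813 counts (35.6 TPM) and 2791 counts (39.4 TPM) in the same order. *Gvin2* took 0%, 60.4%, 26.8% and 33.9% of these counts. For the sum, the genotype ratio was 0.24 [0.15 to 0.34] in SiglecF lo and 0.11 [0.03 to 0.18] in SiglecF hi neutrophils, so that neither was past the threshold.

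**Figure D2:**
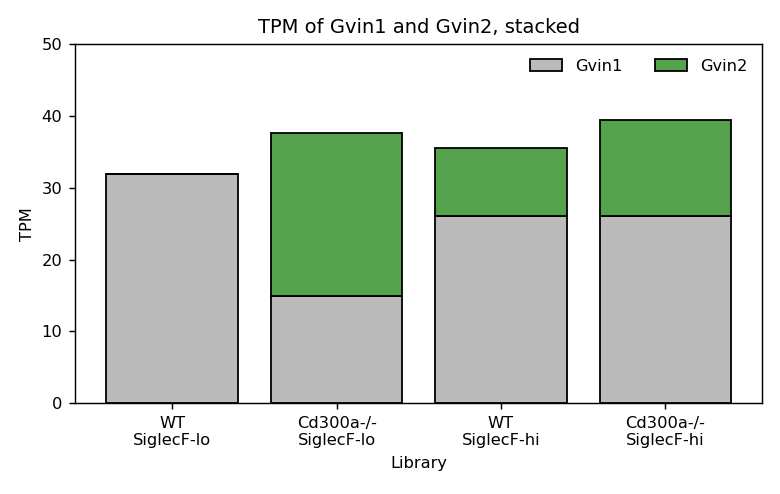
TPM of *Gvin1* (grey) and *Gvin2* (green) stacked in each of the 4 libraries, with TPM on the vertical axis. The stacks reach between 32.0 and 39.4 TPM, while the share of *Gvin2* runs from 0 in WT SiglecF lo to most of the stack in *Cd300a-/-* SiglecF lo neutrophils.

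The transcripts of the 2 genes are close to identical, which makes the split of their counts a question of read assignment. In GENCODE M21 on GRCm38, where the identifier of *Gvin2* carries the older name *Gm4070*, the longest open reading frames of *Gvin2* and *Gvin1* have 7284 bases each and differ at 3 of them. The longest identical stretch has 3098 bases. Of the windows of 75 bases in the longest *Gvin2* transcript, 97.5% occur without a mismatch in transcripts of *Gvin1* (98.8% of windows of 36 bases). The 3 places are printed from 5′ to 3′ with 20 bases on each side, since only reads across such a base, or in the few other unshared windows, can tell the genes apart. The differing base is in capitals, and the number after each name counts bases from the start of the open reading frame.
Gvin2 base 1805: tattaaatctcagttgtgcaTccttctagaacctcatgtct
Gvin1 base 1805: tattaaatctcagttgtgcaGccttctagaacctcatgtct
Gvin2 base 4904: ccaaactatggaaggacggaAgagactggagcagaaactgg
Gvin1 base 4904: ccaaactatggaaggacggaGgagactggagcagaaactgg
Gvin2 base 7075: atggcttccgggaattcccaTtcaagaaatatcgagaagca
Gvin1 base 7075: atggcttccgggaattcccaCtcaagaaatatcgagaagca
How reads that fit both genes were assigned in the deposited counts is not given in the sources used here, and the part of read assignment in the *Gvin2* values was not tested.

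The other 8 genes shared less sequence. Of windows of 75 bases, the share found in transcripts of any other gene was 0% for *Irgm1* and *Iigp1*, 0.0671% for *Gbp5*, 0.983% for *Gbp2*, 2.68% for *Gbp3*, 4.28% for *Irgm2*, 8.37% for *Igtp* and 11.4% for *Gbp7*. The main partner of *Gbp3* was *Gbp7*, and *Igtp* and *Irgm2* were partners of each other. A count of 0 beside a large count was uncommon. Of 10025 genes with at least 100 counts in some library, 155 (1.55%) had 0 counts in another. In 10 genes 1 library was at 0 and the other 3 had at least 100 counts each, and in 7 of the 10 the library at 0 was WT SiglecF lo. *Gvin2* and the unselected *Gbp6* were among these 7, and the 1159 counts of *Gvin2* were the highest count in the 10 genes, with 500 the highest of any of the other 9.

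The same comparison in SiglecF hi neutrophils gave small differences. None of the 9 genes was called higher or lower, where 2.64% of all genes tested were called higher and 4.09% lower. The 9 ratios ran from -0.22 for *Iigp1* to 0.41 for *Gvin2*, with a median of 0.02, and 4 were below the median of all genes. The counting intervals of *Gbp2*, *Gbp3*, *Gbp5*, *Gbp7*, *Irgm1* and *Irgm2* included 0.

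Because the genotype ratios differed in size between the subsets, their difference (SiglecF lo minus SiglecF hi) was calculated for each gene. It was -0.92 [-1.14 to -0.70] for *Igtp*, -0.68 [-1.01 to -0.34] for *Gbp5*, -0.63 [-0.76 to -0.49] for *Gbp2* and -0.42 [-0.59 to -0.24] for *Irgm1*. For *Gbp3*, *Gbp7*, *Irgm2* and *Iigp1* the interval included 0, with differences from -0.14 to 0.19. *Gvin2* has no such interval, since its count was 0 in WT SiglecF lo neutrophils. With 1 library per group these differences were not tested beyond counting error.

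**Figure D3:**
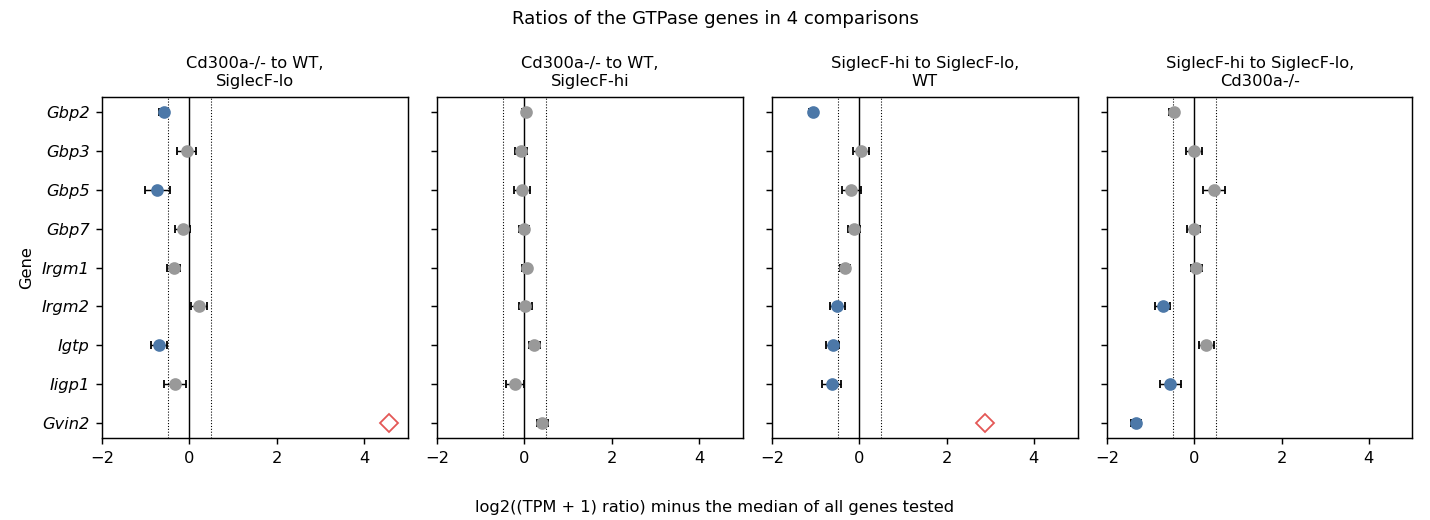
Log2((TPM + 1) ratio) of the 9 genes minus the median of all genes tested, on the horizontal axis, in 4 panels for the 4 comparisons. Bars are 95% counting intervals, blue and red symbols are genes called lower and higher, grey symbols are uncalled, dotted lines mark 0.5 on either side, and the open diamonds are *Gvin2* against a library at 0. In the SiglecF hi genotype panel every gene lies between the dotted lines.

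The comparisons between subsets ask how SiglecF hi differ from SiglecF lo neutrophils of the same genotype, and they use the same 4 libraries as the genotype comparisons. In WT mice, 4 of the 9 genes were called lower in SiglecF hi neutrophils, where 20.9% of all genes tested were, and *Gvin2* was called higher, where 19.3% were. The lower genes were *Gbp2* at -1.07 [-1.16 to -0.97], *Iigp1* at -0.63 [-0.85 to -0.41], *Igtp* at -0.61 [-0.76 to -0.46] and *Irgm2* at -0.51 [-0.68 to -0.34], of which only *Gbp2*, at -0.54, was called lower without subtracting the median, where *Iigp1* was at -0.11, *Igtp* at -0.08 and *Irgm2* at 0.02. Against the floor of 3 counts, the WT subsets differed in *Gvin2* by a TPM at least 147-fold higher in SiglecF hi neutrophils. The sum of *Gvin1* and *Gvin2* gave -0.38 [-0.46 to -0.29]. That of the overlapping genes *Igtp* and *Irgm2* gave -0.58 [-0.70 to -0.47], which is past the threshold.

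In *Cd300a-/-* mice, 3 of the 9 genes were called lower in SiglecF hi neutrophils, where 23.6% of all genes tested were, and none was called higher, where 21.2% were. *Gvin2* was at -1.33 [-1.45 to -1.22], *Irgm2* at -0.73 [-0.89 to -0.56] and *Iigp1* at -0.56 [-0.80 to -0.32], of which only *Gvin2*, at -0.72, was called without subtracting the median, where *Irgm2* was at -0.11 and *Iigp1* at 0.06. *Iigp1* was also not called with TMM factors (-0.49), with TPM over 10 in both libraries or with no filter on low values. The sum of *Igtp* and *Irgm2*, whose intervals overlap, was at -0.05 [-0.17 to 0.07], which is not past the threshold, and the sum of *Gvin1* and *Gvin2* at -0.54 [-0.63 to -0.46]. *Gbp5* was at 0.46 [0.20 to 0.71] and *Gbp2* at -0.47 [-0.58 to -0.37], neither past the threshold, but *Gbp5* passed it with a pseudocount of 0.1 (0.55), TMM factors (0.58) and DESeq2 size factors (0.51), and *Gbp2* with DESeq2 size factors (-0.52). The choice of scale matters for the subsets. Without subtracting the median, 2 members were called higher and 1 lower in WT, with 3386 genes higher and 487 lower in all. In *Cd300a-/-* mice 5 members were called higher and 1 lower, with 3692 genes higher and 520 lower in all. For the subset comparisons, the ratios therefore state where a gene lay relative to the other genes of the library.

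Other gene lists moved in the subset comparisons too. In WT mice, 9 of 15 tested targets of interferon-γ and 14 of 23 tested targets of type I interferon were called lower in SiglecF hi neutrophils and none was called higher, while in *Cd300a-/-* mice 4 and 5 were called lower and 2 and 2 higher. These list calls are with the median subtracted. Without it, in WT *Psmb9* (-0.53), *Fcgr4* (-0.73), *Slamf8* (-1.12) and *Nos2* (-1.31) were still called lower, *Psmb10* (0.65) and *Tapbp* (0.59) higher, and other interferon-γ targets not. Of the type I targets, *Ifit3*, *Oas1a*, *Oasl1*, *Cmpk2*, *Xaf1* and *Zbp1* were then no longer called lower, and *Bst2* was called higher (0.61). In *Cd300a-/-* mice every ratio is higher by 0.61 without subtracting the median. There the summed TPM of SiglecF lo and SiglecF hi neutrophils was 2911 and 3581 for interferon-γ targets and 2704 and 3121 for type I targets. In WT it was 3567 and 3362 for interferon-γ targets and 3909 and 2803 for type I targets. *Nos2* and *Slamf8* were tested only through a SiglecF lo library. All 8 neutrophil markers were called lower in both genotypes, with medians of -3.05 in WT and -3.26 in *Cd300a-/-* mice. All 4 tested endothelial markers were called lower in WT, with a median of -1.29, where in *Cd300a-/-* mice 1 was called higher and none lower. Of 9 macrophage and monocyte markers, 5 were called higher and 2 lower in WT, and 4 higher and 2 lower in *Cd300a-/-* mice. Of 4 tested fibroblast markers, 3 were called higher in WT and none in *Cd300a-/-* mice, with medians of 0.59 and 0.21. The fibroblast sum was nevertheless higher in SiglecF hi than in SiglecF lo neutrophils in both genotypes. It was 1546 against 718 TPM in WT and 1109 against 665 TPM in *Cd300a-/-* mice. *Ear2*, the tested eosinophil marker, was called lower in WT at -1.16 and not in *Cd300a-/-* mice. These marker calls are with the median subtracted, 0.53 in WT and 0.61 in *Cd300a-/-* mice. These counts stand beside 20.9% of all genes lower and 19.3% higher in WT and 23.6% lower and 21.2% higher in *Cd300a-/-* mice, and the part of other cells in the GTPase values was not tested.

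The promoters of the members were searched for motifs of interferon signalling. RefSeq promoters on GRCm38.p6, of 250 bases before and 50 bases after the start of transcription, were matched for 7 of the 9 genes, with 2 entries for *Gbp3*, and *Iigp1* and *Gvin2* had no entry. Both strands were searched for GAAANNGAA, the core of the interferon-stimulated response element, and TTCNNNGAA, the interferon-γ activated site, which reads the same on both strands. The core element was found in all 7 genes (7 of 8 entries) and in 8.56% of all 32851 promoters. The activated site was found in *Gbp5*, *Gbp7*, *Igtp* and *Irgm2* and in 8.30% of all promoters. Both motifs stood in the promoters of these 4 genes and in 1.07% of all promoters, and no 2 matches of different motifs overlapped in the members. Among promoters of the genes tested, 7.67% held the core element and 6.48% the activated site.

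For 3 genes called lower in *Cd300a-/-* SiglecF lo neutrophils, *Gbp2*, *Gbp5* and *Igtp*, and for *Irgm1* and *Irgm2*, the 170 bases before the start are printed from 5′ to 3′ on the strand of the gene, with matches to either motif in capitals. They are chr3:142620493-142620662 (plus strand), chr3:142496764-142496933 (plus), chr11:58199386-58199555 (plus), chr11:48871421-48871590 (minus) and chr11:58214807-58214976 (plus) of GRCm38.p6.
Gbp2: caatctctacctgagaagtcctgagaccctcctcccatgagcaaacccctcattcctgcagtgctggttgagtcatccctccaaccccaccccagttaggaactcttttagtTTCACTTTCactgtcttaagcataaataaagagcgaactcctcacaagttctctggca
Gbp5: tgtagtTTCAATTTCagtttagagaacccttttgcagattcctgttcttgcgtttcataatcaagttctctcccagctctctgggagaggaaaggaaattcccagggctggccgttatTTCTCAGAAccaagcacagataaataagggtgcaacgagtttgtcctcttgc
Igtp: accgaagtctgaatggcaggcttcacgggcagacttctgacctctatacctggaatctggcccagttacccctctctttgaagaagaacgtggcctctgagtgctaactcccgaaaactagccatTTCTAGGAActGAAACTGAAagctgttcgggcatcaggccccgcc
Irgm1: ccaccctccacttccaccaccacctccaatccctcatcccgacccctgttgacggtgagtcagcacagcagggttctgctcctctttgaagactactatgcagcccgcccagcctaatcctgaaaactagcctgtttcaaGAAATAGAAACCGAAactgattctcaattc
Irgm2: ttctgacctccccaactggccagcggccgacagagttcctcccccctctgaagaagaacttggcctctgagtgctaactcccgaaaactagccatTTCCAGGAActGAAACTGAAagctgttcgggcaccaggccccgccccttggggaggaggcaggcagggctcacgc
In *Igtp* and *Irgm2* an activated site stands directly before a core element with the same spacing, at 45 and 34 bases before the start in *Igtp* and at 75 and 64 bases in *Irgm2*. *Gbp2* holds the core element in reverse at 58 bases before the start. *Gbp5* holds an activated site at 52 bases and a reversed core element at 164 bases before the start, and another activated site outside the printed stretch. *Irgm1* holds 2 overlapping core elements, at 30 and 24 bases. A match is a description of the letters and not a shown binding site.

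Other genes of the same families were measured too. Of the 7 other *Gbp* genes only *Gbp9* was tested, at 13.8 and 16.2 TPM in WT and *Cd300a-/-* SiglecF lo and 20.4 and 23.4 TPM in WT and *Cd300a-/-* SiglecF hi neutrophils, with no call in the 4 comparisons. Its interval overlaps those of *Gbp8* and *Gbp4* on the same strand. *Gbp6* was at 0, 105, 147 and 150 counts in WT and *Cd300a-/-* SiglecF lo and then WT and *Cd300a-/-* SiglecF hi neutrophils, and 86.0% of its windows of 75 bases occur in transcripts of another gene. Of the other IRG genes, 10 were measured and 3 tested, of which 1 was called lower and 1 higher in *Cd300a-/-* SiglecF lo neutrophils, where 19.1% and 17.2% of all genes tested were. *Ifi47*, an IRG gene of chromosome 11, was lower in *Cd300a-/-* SiglecF lo neutrophils at 25.2 TPM against 47.8 TPM, a ratio of -0.88 [-1.07 to -0.70], and at 51.6 against 54.1 TPM in SiglecF hi neutrophils. *9930111J21Rik2*, of the same chromosome, was higher at 20.1 TPM against 12.2 TPM, a ratio of 0.69 [0.54 to 0.85], and at 22.0 against 21.4 TPM in SiglecF hi neutrophils.

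A further pair with counts of 0 was *Tgtp1* and *Tgtp2*, IRG genes whose open reading frames differ at 4 of 1248 bases. *Tgtp1* had 0, 0, 138 and 37 counts in WT and *Cd300a-/-* SiglecF lo and then WT and *Cd300a-/-* SiglecF hi neutrophils, where *Tgtp2* had 260, 275, 249 and 409 counts. *Tgtp2* was called higher in *Cd300a-/-* SiglecF hi neutrophils at 0.78 relative to WT, while the sum of both genes gave 0.35 [0.17 to 0.54], under the threshold. The Mx GTPases, *Mx1* and *Mx2*, did not reach the TPM limit.

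The interferon pathway around the members was measured with lists of its ligands, receptors, transducers and targets. Of 7 interferon ligand genes, 4 were at 0 counts in all libraries. *Ifng*, which encodes interferon-γ, had 0 counts in 3 libraries and 18 counts in *Cd300a-/-* SiglecF hi neutrophils, and none of the 7 was tested. Of 6 receptor genes 5 were tested and none was called in either genotype comparison. *Ifngr1*, a chain of the interferon-γ receptor, was at 254 and 297 TPM in WT and *Cd300a-/-* SiglecF lo and at 260.1 and 292 TPM in WT and *Cd300a-/-* SiglecF hi neutrophils. Among genes for transducers and transcription factors, *Stat2* was called lower and the kinase gene *Jak2* higher in *Cd300a-/-* SiglecF lo neutrophils. Of all genes tested, 19.1% were called lower and 17.2% higher there. Neither gene was called in SiglecF hi neutrophils, where 4.09% of all genes were called lower and 2.64% higher. *Stat2* was at 25.1 TPM with and 16.4 TPM without CD300a in SiglecF lo neutrophils, and 24.1 TPM with and 30.5 TPM without it in SiglecF hi neutrophils, with genotype ratios of -0.57 [-0.74 to -0.39] and 0.29 [0.17 to 0.42]. As with *Igtp*, the *Cd300a-/-* libraries were the lowest and the highest.

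Targets of interferons other than GTPases were more often called lower than higher in the same library. Of 15 tested targets of interferon-γ, 9 were called lower and 1 higher in *Cd300a-/-* SiglecF lo neutrophils, where 19.1% and 17.2% of all genes tested were, with a median of -0.74. In SiglecF hi neutrophils 1 was lower and 1 higher, where 4.09% and 2.64% of all genes were, with a median of 0.03. In SiglecF lo neutrophils *Psmb9*, an immunoproteasome gene, was lower at -1.46 and *Cxcl10*, a chemokine gene, at -1.21, while *Nos2*, which encodes inducible nitric oxide synthase, was higher at 2.45. *Nos2* was at 36.2 TPM in *Cd300a-/-* SiglecF lo neutrophils and at 5.85, 1.77 and 4.15 TPM in WT SiglecF lo and in WT and *Cd300a-/-* SiglecF hi neutrophils, so that it was tested only through the library where it was high, and it was the 1 gene of this list called higher in each genotype comparison. *Slamf8*, called lower in both genotype comparisons, was tested only through WT SiglecF lo neutrophils, where it was highest. Its mean was 7.78 TPM without that library, and it was the 1 gene of this list called lower in SiglecF hi neutrophils. Of 23 tested targets of type I interferon, 11 were called lower and 1 higher in SiglecF lo neutrophils, beside the same 19.1% and 17.2% of all genes, with a median of -0.43, against 0 lower and 2 higher, with a median of 0.16, in SiglecF hi neutrophils. *Oas2*, which encodes a sensor of double-stranded RNA, was the gene called higher in SiglecF lo neutrophils, at 0.64. *Usp18* and *Irf7* stand in 2 of the lists each.

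Genes for proteins that work with the GTPases gave mixed values. Of 11 autophagy genes, whose products load GTPases onto vacuoles, 3 were called higher and 1 lower in *Cd300a-/-* SiglecF lo neutrophils, where 17.2% and 19.1% of all genes tested were, and none in SiglecF hi neutrophils. Of 3 ubiquitin ligase genes, *Traf6* and *Rnf213* were called higher in *Cd300a-/-* SiglecF lo neutrophils at 0.51 and 0.59. Of 8 inflammasome genes, *Pycard* was called lower in both genotype comparisons at -0.94 and -0.68, and *Il18* higher in SiglecF lo neutrophils at 0.61. Of 7 inhibitors of interferon signalling 6 were tested and none was called in either genotype comparison. The untested *Socs1* was at 14.1 and 6.61 TPM in WT and *Cd300a-/-* SiglecF lo and at 8.82 and 9.72 TPM in WT and *Cd300a-/-* SiglecF hi neutrophils. Of 5 prenylation enzyme genes 3 were tested, and none was called between genotypes.

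Markers of other cell types were measured beside these results. Of 6 endothelial markers 4 were tested, and all 4 were called lower in *Cd300a-/-* SiglecF lo neutrophils relative to WT, where 19.1% of all genes tested were, with a median of -1.44. Of the 4, *Emcn* was tested only through the *Cd300a-/-* SiglecF hi library, with a mean of 9.69 TPM without it. In SiglecF hi neutrophils none was called, with a median of 0.21. Their summed level was 137 TPM with and 47.1 TPM without CD300a in SiglecF lo neutrophils, and 79.2 TPM with and 97.0 TPM without it in SiglecF hi neutrophils, with *Pecam1* the most abundant and no marker at 0. The endothelial sum thus had the same highest and lowest library as *Gbp2* and *Gvin1*, and its part in the GTPase values was not tested.

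All 9 macrophage and monocyte markers were tested and none was called between genotypes in either subset. Their sum was 10583 TPM with and 9317 TPM without CD300a in SiglecF lo neutrophils, and 20913 TPM with and 17464 TPM without it in SiglecF hi neutrophils, with *Lyz2*, which neutrophils express too, the most abundant and none at 0. Of 5 fibroblast markers 4 were tested, with sums of 718, 665, 1546 and 1109 TPM in the same order, *Dcn* the most abundant and none at 0. None of the 4 was called between genotypes in SiglecF lo neutrophils, and *Col1a1* at -0.68 and *Col3a1* at -0.69 were called lower in *Cd300a-/-* SiglecF hi neutrophils, where 4.09% of all genes were. The 5 cardiomyocyte markers summed to 27.8, 12.5, 35.6 and 45.7 TPM, with *Tnnt2* the most abundant by mean over the libraries, but *Actc1* above it in both SiglecF lo libraries, and of the 2 tested *Actc1* was called lower in *Cd300a-/-* SiglecF lo neutrophils at -0.84, where 19.1% of all genes were. Without the WT SiglecF lo library, where it was highest, the mean of *Actc1* was 9.26 TPM, under the limit of 10. That of *Tnnt2* was 8.36 TPM without the *Cd300a-/-* SiglecF hi library, where it was highest. The 7 eosinophil markers summed to 173, 87.9, 117 and 119 TPM, almost all from *Ear2*, the only one tested and called lower in *Cd300a-/-* SiglecF lo neutrophils at -0.97, and the defining marker *Epx* was at 0 in all 4 libraries. The part of these cells in the GTPase values was not tested.

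Lymphocyte and dendritic cell markers were near 0. The 7 T and NK cell markers summed to 8.75, 4.73, 3.23 and 8.79 TPM in WT and *Cd300a-/-* SiglecF lo and then WT and *Cd300a-/-* SiglecF hi neutrophils, with *Cd3d* the most abundant by mean over the libraries and *Trac* at 0 throughout. The 4 B cell markers summed to 5.09, 6.22, 8.55 and 14.2 TPM, with *Cd79b* the most abundant by the same mean. The 4 dendritic cell markers summed to 2.27, 1.61, 3.36 and 6.17 TPM, with *Flt3* the most abundant by the same mean but at 0 in WT SiglecF lo neutrophils.

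The genes whose pattern over the 4 libraries was most like the mean pattern of the members were found by Euclidean distance on log2(TPM + 1), centred per gene, among 6395 tested genes outside the lists. With all 9 members they were *Fbxl6*, *Tmem94*, *Snx11*, *Mcur1* and *Actr2*, at distances from 0.00838 to 0.0524. Without *Gvin2* they were *Tmem243*, *Bak1*, *Mphosph6*, *Serp1* and *Hlx*, at distances from 0.0265 to 0.0485. The 2 sets had no gene in common. With *Gvin2* the mean pattern was at -0.30 in place of 0.03 in WT SiglecF lo neutrophils and at -0.11 in place of -0.33 in *Cd300a-/-* SiglecF lo neutrophils. *Bak1*, for example, was at 69.4 TPM with and 53.9 TPM without CD300a in SiglecF lo neutrophils, and 76.2 TPM with and 75.5 TPM without it in SiglecF hi neutrophils, with its low point in the library where the sum of the 9 GTPase genes was lowest.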

How the data were processed

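Processed files of 4 RNA-Seq libraries, 1 per group, were analysed. The study's methods name ISOGEN, NEBNext kits for poly(A) RNA and libraries, 75 cycles of paired-end sequencing and CLC Genomics Workbench 20.0, and the labels name GRCm39. Alignment settings, the annotation release and the handling of reads that fit several genes are not given in the sources used here. The authors deposited a whole-number count per gene, RPKM, TPM and a signal named CPM, which is the count scaled to library size and to 1 factor per library. This factor was 1.10 in WT and 1.15 in *Cd300a-/-* SiglecF lo neutrophils, and 0.884 in WT and 0.893 in *Cd300a-/-* SiglecF hi neutrophils, equal to the inverse of edgeR's TMM factor to 3 digits. Counts and TPM were used, and the deposited RPKM was not used here.

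Ratios were log2((TPM + 1) ratio) with the median of 6523 genes (mean TPM over 10) subtracted, and called past 0.5. Intervals of 95% came from Poisson counts by the delta method. Alternatives were a pseudocount of 0.1, other filters, a threshold of 1, no median, edgeR 4.0.16 TMM factors and DESeq2 1.42.0 size factors (R 4.3.3). The calculation was tested on simulated counts. Python 3.11.15, numpy 2.4.6, pandas 2.3.3, scipy 1.17.1 and matplotlib 3.10.9 were used. The members and lists were chosen with earlier results of these data known. Named genes are the members, list genes that were called or most abundant, genes overlapping a member, genes sharing a name stem with a member and 0 counts in 1 library, and the 5 genes nearest in pattern. Comparisons of transcripts and the sums of similar genes beyond *Gvin1* and *Gvin2* were added after seeing the data. Protein sequences were not analysed here, and 1 gene of the lists is not reported here.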

Additional observations from a re-analysis of the deposited data

Results flagged for a closer look

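Among the 9 GTPase genes, *Igtp* had genotype ratios of opposite sign in the 2 subsets, with -0.70 among SiglecF lo and 0.22 among SiglecF hi cells, each with a counting interval that excludes 0. The difference was -0.92, and it was not tested beyond counting error, because each group has 1 library. With *Irgm2*, which overlaps *Igtp*, added to it, the ratios were -0.40 and 0.17. Of 97 tested genes of the interferon and GTPase lists, 25 had such opposite ratios, 22 of them lower in *Cd300a-/-* SiglecF lo and higher in *Cd300a-/-* SiglecF hi neutrophils. The same held for 1015 (15.6%) of all 6523 genes tested, 527 of them lower in SiglecF lo neutrophils.

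For transducers and transcription factors that act upstream of the GTPase genes, the difference between the 2 ratios was -0.86 for *Stat2* and -0.37 for *Irf1*. For targets of type I interferon it was -1.60 for *Ifit1*, -1.55 for *Ifit2*, -1.14 for *Ifit3*, -1.29 for *Ifit3b*, -0.27 for *Oas3*, -0.49 for *Ifih1*, -0.94 for *Herc6*, -0.88 for *Xaf1*, -0.64 for *Rtp4*, -0.53 for *Zbp1* and -0.51 for *Slfn5*. For other list genes it was -1.42 for *Cxcl10*, -0.39 for *Tap2*, -0.38 for *Gabarapl2*, -0.86 for *Trim21*, -0.57 for *Aim2*, -0.29 for *Nlrp3* and -0.70 for *Il1b*. In the other direction it was 0.68 for *Irf3*, 0.65 for *Casp1* and 1.08 for *Il18*. *Trim21* was tested only through the *Cd300a-/-* SiglecF hi library, where it was highest, with a mean of 9.08 TPM without it. None of these differences was tested beyond counting error.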

How the results depend on the processing

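For *Cd300a-/-* against WT in SiglecF hi neutrophils 0 of 9 members were called in the main setting and in all 8 alternatives. In SiglecF lo neutrophils 4 were called, and 6 of 8 alternatives stayed within 1.5 times of this. A TPM over 10 in both libraries left 2, since *Gbp5* and *Gvin2* were not tested, and a threshold of 1 left 1. For SiglecF hi against SiglecF lo neutrophils in WT, 5 were called, but 3 without subtracting the median, 3 with TPM over 10 in both libraries, 2 with no filter on low values and 2 at a threshold of 1. In *Cd300a-/-* mice 3 were called, but 6 without subtracting the median, 5 with DESeq2 size factors and 1 at a threshold of 1. The count of 3 with TMM factors and with no filter on low values stood for other genes, with *Gbp5* called higher and *Iigp1* not called. With no filter the median subtracted was 0.38 in place of 0.53 in WT and 0.42 in place of 0.61 in *Cd300a-/-* mice, and with TPM over 10 in both libraries it was 0.43 in WT, where *Gvin2* was not tested and *Irgm2* not called. A higher threshold leaves fewer calls by construction, and for TMM and DESeq2 factors the cause was not tested.

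Without subtracting the median, the ratio of *Irgm2* between subsets in WT changed sign to 0.0192 and that of *Iigp1* in *Cd300a-/-* mice to 0.0571, where the median of all genes was 0.53 and 0.61. Over the 4 comparisons 7 other ratios, none of them called with the median subtracted, changed sign as well, among them *Gbp2* in *Cd300a-/-* mice (-0.47 to 0.14) and *Irgm1* in WT (-0.33 to 0.19). Of 36 member ratios, 18 stayed within their counting interval without subtracting the median, while 34 stayed within their counting interval with a pseudocount of 0.1, 34 with TMM factors and 34 with DESeq2 size factors. The *Gvin2* genotype ratio in SiglecF lo neutrophils was 4.58, and 0.24 with *Gvin1* and *Gvin2* summed. Without *Gbp2*, the summed TPM was 208.1 in WT and 183.7 in *Cd300a-/-* SiglecF lo neutrophils, and 241.7 in WT and 260.2 in *Cd300a-/-* SiglecF hi neutrophils. Without *Gvin2*, an alternative chosen after seeing the data, it was 246.8, 321.9 and 341.5 in the *Cd300a-/-* SiglecF lo and the WT and *Cd300a-/-* SiglecF hi libraries.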

Other observations

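The values describe 4 pooled libraries and carry no estimate of the variation between mice. Intervals cover counting error only. *Gbp5* and *Iigp1* rest on 124 to 448 and 197 to 366 counts, so that their intervals are wider than those of *Gbp2*, with 1223 to 1980 counts. *Gvin2* shares most of its sequence with *Gvin1*, and *Igtp* and *Irgm2* overlap, and how reads were split between them was not tested. The SiglecF lo libraries were less deeply sequenced than the SiglecF hi libraries. RNA does not measure the GTPase proteins or their activity.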
